A study of Mus musculus with 4 samples.

Results

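The 52 genes described here encode the machinery of the lysosome, and they were chosen as a list of symbols: proteases of the cathepsin type, glycosidases and sulfatases, lipid hydrolases with their activators, membrane proteins, subunits of the proton pump, and 3 regulators. A gene was measured where the platform annotation gave at least 1 probe set to it alone, and where it had several, the brightest by mean log2 value was taken. That held for 50 of the 52 genes, with 95 probe sets among them. Arsb, a sulfatase, and Atp6v0c, the subunit that forms the proton-carrying ring, were not measured here. In all, 42 genes passed the filter on dim probe sets (above the median of the array in at least 2 of 4 arrays), out of 6949 genes on the array whose chosen probe set passed it.

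The cells were Py-4-1, a line grown from a mouse endothelial tumour (hemangioendothelioma), and 4 clones of it were each profiled on 1 Affymetrix array with a single colour. A pair of arrays held clones labelled pcDNA/Prox1, described as stably expressing the lymphatic transcription factor Prox1, and the other pair held control-transfected pcDNA clones. Since every clone has a single array, clonal, culture and array differences within a group cannot be told apart. Values are deposited MAS5 intensities, and a log2 change is the mean of log2(intensity + 47) in Prox1-labelled clones minus that in control clones, with the standard error and adjusted p of a limma fit across all probe sets tested. This scale understates the change of dim probe sets.

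The label of the Prox1 clones was not borne out by the array, but the 1 Prox1 probe set lay under the filter and was too dim to test it. It read 62.4 and 44.3 in Prox1-labelled clones 1 and 2, against 52.1 and 60.5 in control clones 1 and 2. The sources used here do not say which stretch of the Prox1 transcript the probe set covers or which was transfected. As a floor, the brightest of 27 probe sets for Bacillus genes read 88.4 and 97.5 in Prox1-labelled clones and 45.3 and 101 in control clones. All 42 genes that passed the filter exceeded it on all 4 arrays, and the Prox1 probe set did so on 1, that of control clone 1. Of 9 endothelial markers, 8 passed the filter, among them Pecam1 at 6242 and 5826 in Prox1-labelled clones, against 5679 and 5418 in control clones. All 8 had positive log2 changes and 0 passed the test described below. The changes ran from 0.12 at Pecam1 to 0.92 at Tek, which read 1005 and 857 in Prox1-labelled clones, against 377 and 579 in control clones. Without control clone 1 the changes of Cdh5, Egfl7 and Esam were negative, and the median of the 8 was 0.091, against 0.27 with all clones. The 9 markers summed to 44661 and 40994 in Prox1-labelled clones, against 31412 and 41186 in control clones. The part of these marker levels in the results was not tested. Of 12 macrophage and other leukocyte markers, 2 passed the filter (Csf1r and Cd14). Of the 12, 4 exceeded the highest Bacillus probe set on all arrays, among them Adgre1 and Lyz2. Another 4, among them the pan-leukocyte gene Ptprc, exceeded it on none. The intensities of those 12 summed to 1212 and 1288 in Prox1-labelled clones, against 1132 and 1459 in control clones. Within the control group, clones differed more than within the Prox1-labelled group at 31 of the 42 genes (64.3% of all genes tested).

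Lysosomes are acidic compartments in which proteins, glycans and lipids taken up or sorted there are broken down. The vacuolar ATPase, a membrane-embedded V0 part joined to a cytosolic V1 part that hydrolyses ATP, pumps in the protons that the hydrolases need. Most soluble hydrolases are carried there by mannose 6-phosphate receptors, and many lysosomal genes can be switched on together by the transcription factor TFEB, which binds an E-box motif in their promoters. Endothelial cells use lysosomes for the turnover of receptors and matrix, and secreted cathepsins can cut basement membrane.

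The genes were chosen by symbol, without their promoter sequences. As the E-box is already known from promoters of lysosomal genes, its share is given here as a description and not as independent support. RefSeq promoters (GRCm38.p6, from 250 bases before to 50 after an annotated start) were matched by symbol for 46 of the 52 genes, and Asah1, Atp6v1b2, Atp6v1c1, Atp6v1h, Ctsb and Ctsh had no entry. The motif CACGTG, which reads the same on both strands, was present in 17 of the 46 genes (36.96%), against 12.4% of 5716 tested genes with a promoter and 8.09% of all 27025 genes in the table. With a flanking T, as TCACGTG on either strand, it was present in 15 of the 46 (32.6%), against 7.33% of tested genes and 4.29% of all genes. Overlapping matches were counted as 1 site. By promoter instead of by gene, TCACGTG was held by 27.3% of 55 promoters of these genes. It was held by 6.10% of 7358 promoters of tested genes and 3.77% of all 32851 promoters of the same length.

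The 250 bases before the start are shown for the 2 genes with the highest and the 2 with the lowest log2 change among those that passed the filter and hold TCACGTG, 5′ to 3′ on the gene's strand, with each site in capitals. They are shown so that the position of the motif can be seen beside positive and negative changes.
Arsa, chr15:89477425-89477674, minus strand: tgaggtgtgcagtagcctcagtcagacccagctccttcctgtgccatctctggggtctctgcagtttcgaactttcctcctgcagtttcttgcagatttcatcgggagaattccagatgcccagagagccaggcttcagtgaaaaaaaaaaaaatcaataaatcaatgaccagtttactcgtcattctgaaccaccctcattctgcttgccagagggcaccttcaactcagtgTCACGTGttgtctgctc
Lgmn, chr12:102439093-102439342, minus strand: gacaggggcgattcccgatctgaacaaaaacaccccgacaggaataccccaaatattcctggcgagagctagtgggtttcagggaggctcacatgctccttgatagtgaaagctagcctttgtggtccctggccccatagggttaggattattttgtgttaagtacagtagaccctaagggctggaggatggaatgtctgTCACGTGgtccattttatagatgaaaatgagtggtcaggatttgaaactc
Mcoln1, chr8:3500269-3500518, plus strand: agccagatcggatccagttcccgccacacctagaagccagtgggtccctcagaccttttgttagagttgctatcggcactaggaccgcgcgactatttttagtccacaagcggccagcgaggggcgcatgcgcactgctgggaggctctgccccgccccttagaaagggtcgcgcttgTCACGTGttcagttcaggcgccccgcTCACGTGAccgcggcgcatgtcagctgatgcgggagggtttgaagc
Atp6v1a, chr16:44139260-44139509, minus strand: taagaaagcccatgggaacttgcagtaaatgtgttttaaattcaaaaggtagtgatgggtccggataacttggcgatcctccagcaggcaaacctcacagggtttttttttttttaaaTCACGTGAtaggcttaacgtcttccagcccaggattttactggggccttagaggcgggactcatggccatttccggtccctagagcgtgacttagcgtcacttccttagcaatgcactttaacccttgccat
Arsa, the sulfatase that degrades sulfatide, holds 1 site that begins 17 bases before the start and had a log2 change of 0.58. For Lgmn, which encodes the asparaginyl endopeptidase legumain, 1 site begins 50 bases before the start of 1 of its 2 annotated promoters, and the change was 0.20, or -0.0097 without control clone 1. Mcoln1, a lysosomal calcium channel, holds 2 sites, 72 and 46 bases before the start, and its change was -0.40. A single site of Atp6v1a, the catalytic subunit of the proton pump, begins 132 bases before the start, and the change was -0.30. Of the 14 genes with TCACGTG that passed the filter, 5 had positive changes (median -0.11). Of the 22 without it, 11 had positive changes (median 0.014). A match is a run of letters and was not tested as a binding site.

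None of the lysosomal genes passed the threshold of the comparison, an adjusted p of 0.05 over 11656 probe sets, of which 12 were called (0.103%), 11 with higher (0.0944%) and 1 with lower values (0.00858%) in Prox1-labelled clones. This count of 0 held for the 42 genes and for each of their 75 probe sets that passed the filter, with a lowest adjusted p of 0.206. At an unadjusted p under 0.05 there were 6 genes of 42, or 14.3%, the same share as among all genes tested (14.3%). These 6 were Ppt1, Ids, Arsa and Ctsh, with higher values in Prox1-labelled clones, and Atp6v0a1 and Hexa, with lower ones, where 8.22% of all genes tested were higher and 6.13% lower at that p. The groups did not overlap at 20 genes, 7 with higher and 13 with lower values in Prox1-labelled clones, where 23.2% of all genes tested were higher and 23.2% lower without overlap. Changes were positive at 17 of the 42 genes and negative at 25, where 50.9% of all genes tested were positive. The median log2 change over the 42 genes was -0.042, beside 0.0072 over all genes tested, and changes ran from -0.72 to 0.78.

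The precision of these values can be read from the 95% intervals of the fit. For 35 of the 42 genes the interval lay within a 2-fold change in either direction (84.8% of all genes tested), and the median half-width was 0.47 on the log2 scale. The 7 genes whose interval reached beyond 2-fold were Ppt1, Ids, Arsa, Ctsh, Gusb, Mcoln1 and Atp6v0a1. Control clones 1 and 2 lay farther apart than the 2 group means at 26 of the 42 genes (56.7% of all genes tested).

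**Figure D1:**
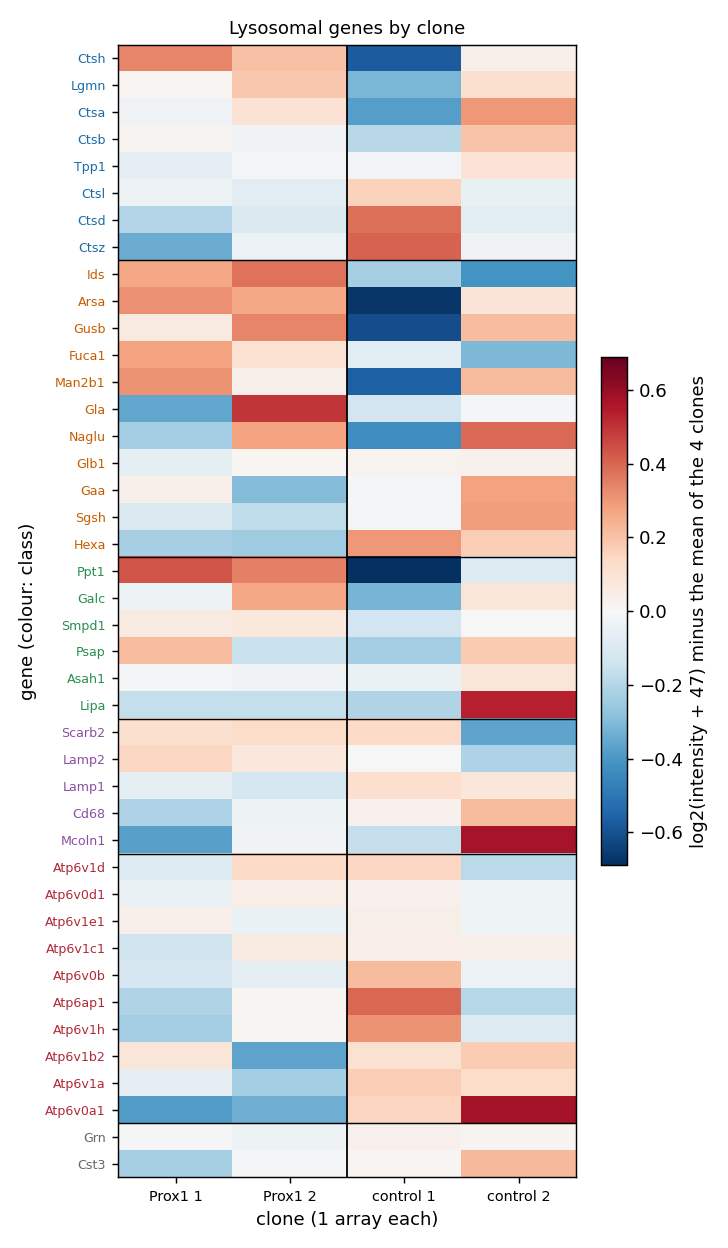
Values of the 42 lysosomal genes that passed the filter, as log2(intensity + 47) minus the gene's mean over 4 clones, with a column per clone and genes grouped by class (label colour). Columns of the Prox1-labelled clones stand left of the line, and control clone 1 holds the lowest values, at Ppt1 and Arsa.

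The proteases include the cathepsins, which cut proteins in the lysosome, legumain and the tripeptidyl peptidase Tpp1. Of 12 listed, all were measured and 8 passed the filter, with 3 positive and 5 negative changes and a median of -0.041. Ctsh, an aminopeptidase among the cathepsins, read 3547 and 3237 in Prox1-labelled clones, against 1868 and 2875 in control clones. Both Prox1-labelled clones lay above both control clones, with a log2 change of 0.54 ± 0.22 (limma adjusted p = 0.320). Without control clone 2 it passed the threshold (0.84, adjusted p = 0.0151), and without control clone 1 the change was 0.23.

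Ctsz, a carboxypeptidase, read 2216 and 2749 in Prox1-labelled clones, against 3765 and 2772 in control clones. The change was -0.38 ± 0.21 (limma adjusted p = 0.445), and control clone 1 stood apart from the other 3 arrays. The other probe sets of Ctsz gave -0.23 and -0.65, the same direction. Ctsd, the main aspartic protease of lysosomes, read 9946 and 10697 in Prox1-labelled clones, against 14881 and 10845 in control clones, again with control clone 1 high. Its change was -0.30 ± 0.19 (adjusted p = 0.509), which became -0.53 without control clone 2 (adjusted p = 0.0238) and -0.072 without control clone 1. Lgmn, the legumain gene, read 1913 and 2162 in Prox1-labelled clones, against 1515 and 2048 in control clones, so that the groups overlapped. It had a change of 0.20 ± 0.21 (adjusted p = 0.714), or -0.0097 without control clone 1.

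The other proteases that passed the filter showed smaller differences. The cysteine protease gene Ctsb read 8164 and 7919 in Prox1-labelled clones, against 7048 and 9258 in control clones, a change of -0.0067 ± 0.18 (adjusted p = 0.993). Ctsl, which encodes a cysteine endopeptidase, had -0.11, Tpp1 had -0.074, and Ctsa, the protective protein that stabilises beta-galactosidase and neuraminidase, had 0.080. At all 8 proteases the control clones lay farther apart than the group means, and without control clone 1 the change of Ctsa was -0.26.

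The cathepsin genes Ctsc, Ctsf, Ctsk and Ctss did not pass the filter. Ctss, a cathepsin of antigen-presenting cells, read 11.4 and 23.1 in Prox1-labelled clones, against 48.8 and 49.3 in control clones, and 1 of these 4 values lay above the highest Bacillus probe set of its array. Ctsk, the collagen-degrading cathepsin of osteoclasts, read 39.1 and 57.1 in Prox1-labelled clones, against 35.5 and 79.4 in control clones. Ctsk and Ctsf lay under the highest Bacillus probe set on all 4 arrays, and Ctsc, which activates serine proteases of leukocytes, exceeded it on 1. These arrays therefore give no measure of the change of these 4 genes.

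Glycosidases remove sugars from glycoproteins and glycolipids, and sulfatases remove their sulfate groups. Of 12 listed, 11 were measured and all 11 passed the filter, with 7 positive and 4 negative changes and a median of 0.14. Ids, the iduronate sulfatase of heparan and dermatan sulfate, read 247 and 269 in Prox1-labelled clones, against 161 and 136 in control clones. The groups did not overlap, and the log2 change was 0.64 ± 0.21 (limma adjusted p = 0.238). Without any 1 clone it ran from 0.55 to 0.73. Of the 4 other Ids probe sets, which were under the filter, 2 lay above the Bacillus floor on all arrays, with changes of -0.083 and 0.12 and overlapping groups, so the change of Ids rests on 1 probe set.

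Arsa, the sulfatide sulfatase, read 3231 and 3125 in Prox1-labelled clones, against 1607 and 2761 in control clones. Its change was 0.58 ± 0.25 (adjusted p = 0.330), with control clone 1 far under the other 3 arrays. Without control clone 2 it passed the threshold (0.96, adjusted p = 0.00905), and without control clone 1 it stood at 0.20. Fuca1, the alpha-fucosidase gene, read 2303 and 2036 in Prox1-labelled clones, against 1788 and 1517 in control clones, a change of 0.39 ± 0.19 (adjusted p = 0.386). All 3 probe sets of Fuca1 had positive changes, from 0.13 to 0.39.

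Hexa, the alpha subunit of beta-hexosaminidase, whose loss underlies Tay-Sachs disease, went the other way. It read 2308 and 2284 in Prox1-labelled clones, against 3351 and 3062 in control clones. Both groups were tight and did not overlap, with means of 2296 ± 17.1 in Prox1-labelled clones and 3206 ± 204 in control clones (SD, n = 2 each) and a log2 change of -0.47 ± 0.17 (limma adjusted p = 0.269). Leaving out any 1 clone kept it between -0.54 and -0.41.

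Gusb, the beta-glucuronidase gene, read 483 and 595 in Prox1-labelled clones, against 285 and 542 in control clones, and both of its probe sets had changes of 0.39 and 0.40 (adjusted p = 0.560 each). Man2b1, the lysosomal alpha-mannosidase gene, had 0.35 (adjusted p = 0.605). For both genes the value depended on which control clone was used: without control clone 2 both passed the threshold (0.81 with adjusted p = 0.0376 for Gusb, and 0.74 with adjusted p = 0.0472 for Man2b1), and without control clone 1 they stood at -0.013 and -0.044. Naglu, which trims heparan sulfate, had 0.040. This became 0.45 when control clone 2 was left out and -0.37 when control clone 1 was.

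Gaa, the acid alpha-glucosidase that degrades glycogen, had -0.27 (adjusted p = 0.614), and its other probe set had -0.57 (adjusted p = 0.269). The heparan sulfamidase gene Sgsh had -0.28 and the beta-galactosidase gene Glb1 had -0.049. Gla, the alpha-galactosidase gene, read 764 and 1416 in Prox1-labelled clones, against 900.03 and 987 in control clones, so that both control values lay between the Prox1-labelled ones. Without Prox1-labelled clone 2 its change of 0.14 became -0.29. The other Gla probe set read 90.0 and 323 in Prox1-labelled clones, against 21.6 and 201 in control clones. The value of control clone 1 there lay under its Bacillus floor, and the change of 0.79 was -0.14 without control clone 1 and 1.71 without control clone 2.

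Lipid hydrolases degrade sphingolipids, cholesteryl esters and lipid anchors, some with the help of activator proteins. All 7 listed were measured and 6 passed the filter, with 4 positive and 2 negative changes and a median of 0.096. Ppt1, the thioesterase that removes palmitate from proteins, had the highest change of all 42 genes. It read 719 and 675 in Prox1-labelled clones, against 305 and 485 in control clones, with means of 697 ± 30.6 in Prox1-labelled clones and 395 ± 128 in control clones (SD, n = 2 each). The groups did not overlap, and the log2 change was 0.78 ± 0.24, or 1.72-fold (limma adjusted p = 0.207). The other Ppt1 probe set gave 0.64 (adjusted p = 0.223), with 441 and 460.2 in Prox1-labelled clones, against 245 and 303 in control clones. Without control clone 2 Ppt1 passed the threshold (1.08, adjusted p = 0.00959), and without control clone 1 it stood at 0.48.

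Lipa, the acid lipase of cholesteryl esters, read 994 and 992 in Prox1-labelled clones, against 961 and 1644 in control clones. The change was -0.33 ± 0.25 (adjusted p = 0.604), it was 0.046 without control clone 2, and the other probe sets gave -0.093 and 0.053. Galc, the galactosylceramidase gene, read 454 and 571 in Prox1-labelled clones, against 363 and 497 in control clones, a change of 0.24 ± 0.22 (adjusted p = 0.687) with overlapping groups. Without control clone 1 Galc stood at 0.032. Smpd1, the acid sphingomyelinase gene, read 769 and 777 in Prox1-labelled clones, against 668 and 733 in control clones, and had 0.13 ± 0.19 (adjusted p = 0.797). The acid ceramidase gene Asah1 had -0.036 and Psap, the precursor of the saposins, had 0.058. Gm2a, the GM2 activator, lay under the filter, with 148 and 129 in Prox1-labelled clones, against 96.4 and 137 in control clones.

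Lysosomal membrane proteins shield the membrane from the hydrolases or carry ions and products across it. All 7 listed were measured and 5 passed the filter, with 2 positive and 3 negative changes and a median of -0.19. Lamp1, a major glycoprotein of the membrane, read 5981 and 5764 in Prox1-labelled clones, against 6799 and 6631 in control clones. The groups did not overlap, but the change was small, -0.19 ± 0.16 (limma adjusted p = 0.637), and leaving out any 1 clone kept it between -0.22 and -0.17. Its partner Lamp2, also a receptor of chaperone-mediated autophagy, read 3379 and 3217 in Prox1-labelled clones, against 3047 and 2624 in control clones, a change of 0.22 ± 0.18 (adjusted p = 0.626). The other Lamp2 probe sets gave 0.072, 0.073 and -0.67 (adjusted p = 0.353 for the last). Of the 4 probe sets past the filter, 3 were thus positive, and the direction for Lamp2 is not settled.

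Mcoln1, the calcium channel, read 410 and 535 in Prox1-labelled clones, against 481 and 833 in control clones. With a change of -0.40 ± 0.27 (adjusted p = 0.538), the groups overlapped and control clone 2 stood above the others. Without control clone 2 it had -0.034, and without control clone 1 -0.77. Cd68, a macrophage-rich member of the Lamp family, read 708 and 806 in Prox1-labelled clones, against 847 and 970 in control clones, a change of -0.25 ± 0.19 (adjusted p = 0.607). Scarb2, the receptor that carries glucocerebrosidase to lysosomes, had 0.23 (adjusted p = 0.679), or -0.016 without control clone 2. The cystine transporter gene Ctns and Cln3, a membrane protein mutated in Batten disease, lay under the filter, with overlapping groups.

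The proton pump class holds subunits of the vacuolar ATPase. Of 11 listed, 10 were measured and all 10 passed the filter, with 1 positive and 9 negative changes and a median of -0.19, where 49.1% of all genes tested were negative. The count of negative changes depended on the scaling, the probe sets and the clones used: it was 7 of 10 with quantile normalization, 10 of 10 with median centring, 6 of 10 when the probe sets of each gene were averaged (median -0.076), 6 of 10 without control clone 1 (median -0.032), 7 of 10 without Prox1-labelled clone 1, and 10 of 10 without control clone 2 (median -0.28). No pump gene passed the threshold under any of these.

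Atp6v0a1, an isoform of the large V0 subunit that forms the proton path, had the lowest change of all 42 genes. It read 327 and 340.0 in Prox1-labelled clones, against 493 and 678 in control clones, with means of 334 ± 8.90 in Prox1-labelled clones and 586 ± 131 in control clones (SD, n = 2 each). The log2 change was -0.72 ± 0.22 (limma adjusted p = 0.206), and it ran from -0.93 to -0.50 when any 1 clone was left out. Its probe sets disagreed. Another gave -0.32 (adjusted p = 0.579), while a further one gave 0.58 (adjusted p = 0.280), with 557 and 401 in Prox1-labelled clones, against 312 and 289 in control clones. The direction for Atp6v0a1 is therefore not settled.

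The V1 subunit genes had small changes. Atp6v1a, the catalytic subunit, read 1028 and 909.6 in Prox1-labelled clones, against 1219 and 1183 in control clones, a change of -0.30 ± 0.19 (limma adjusted p = 0.502) with no overlap. The other Atp6v1a probe set gave -0.078, with overlapping groups. Atp6v1b2, the other subunit of the catalytic ring, read 1451 and 1049.85 in Prox1-labelled clones, against 1471 and 1546 in control clones, a change of -0.28 ± 0.21 (adjusted p = 0.591). Only its Prox1-labelled clone 2 stood well under the other 3 arrays, and without that clone the change was -0.054. Atp6v1h, a regulatory subunit, read 1350.2 and 1614 in Prox1-labelled clones, against 1992 and 1494 in control clones, a change of -0.22 ± 0.21 (adjusted p = 0.692). Without control clone 1 it stood at -0.016.

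The remaining pump genes lay closer to 0 in the probe sets chosen for them. Atp6v0d1, which links V0 to the rotor of V1, read 1505 and 1603 in Prox1-labelled clones, against 1586 and 1524 in control clones, with a change of -0.0011 ± 0.18 and an interval from -0.41 to 0.40. Changes of Atp6v1c1, Atp6v1d and Atp6v1e1, which encode stalk subunits, were -0.080, 0.041 and -0.012. The other Atp6v1d probe sets gave 0.12 and 0.38, the second with groups that did not overlap (1666 and 1799 in Prox1-labelled clones, against 1427 and 1212 in control clones, adjusted p = 0.386). Atp6v0b, another subunit of the V0 ring, had -0.18, while its other probe sets had 0.019 and 0.42. The accessory subunit gene Atp6ap1 had -0.20, or 0.10 without control clone 1.

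Among the 3 regulators, Tfeb, the transcription factor of lysosomal genes, lay under the filter. It read 78.1 and 57.3 in Prox1-labelled clones, against 78.9 and 129 in control clones, and exceeded the highest Bacillus probe set of its array in both control clones, of which clone 1 has the lowest such floor. Prox1-labelled clone 1 and control clone 1 were nearly equal. Its change was -0.38 ± 0.26 (limma without the filter, adjusted p = 0.676). Cst3, which encodes cystatin C, a secreted inhibitor of cysteine cathepsins, read 2078 and 2431 in Prox1-labelled clones, against 2468 and 2857 in control clones. The change was -0.24 ± 0.19 (adjusted p = 0.614), and the groups were separated by a small gap. Grn, the precursor of the lysosomal granulins, read 15999.9 and 15700.4 in Prox1-labelled clones, against 16426 and 16347 in control clones, a change of -0.048 ± 0.15 (adjusted p = 0.917). The interval of Grn, from -0.38 to 0.28, lay well within a 2-fold change. The other Grn probe sets gave -0.19 (interval -0.73 to 0.35) and -0.21 (interval -0.65 to 0.22).

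**Figure D2:**
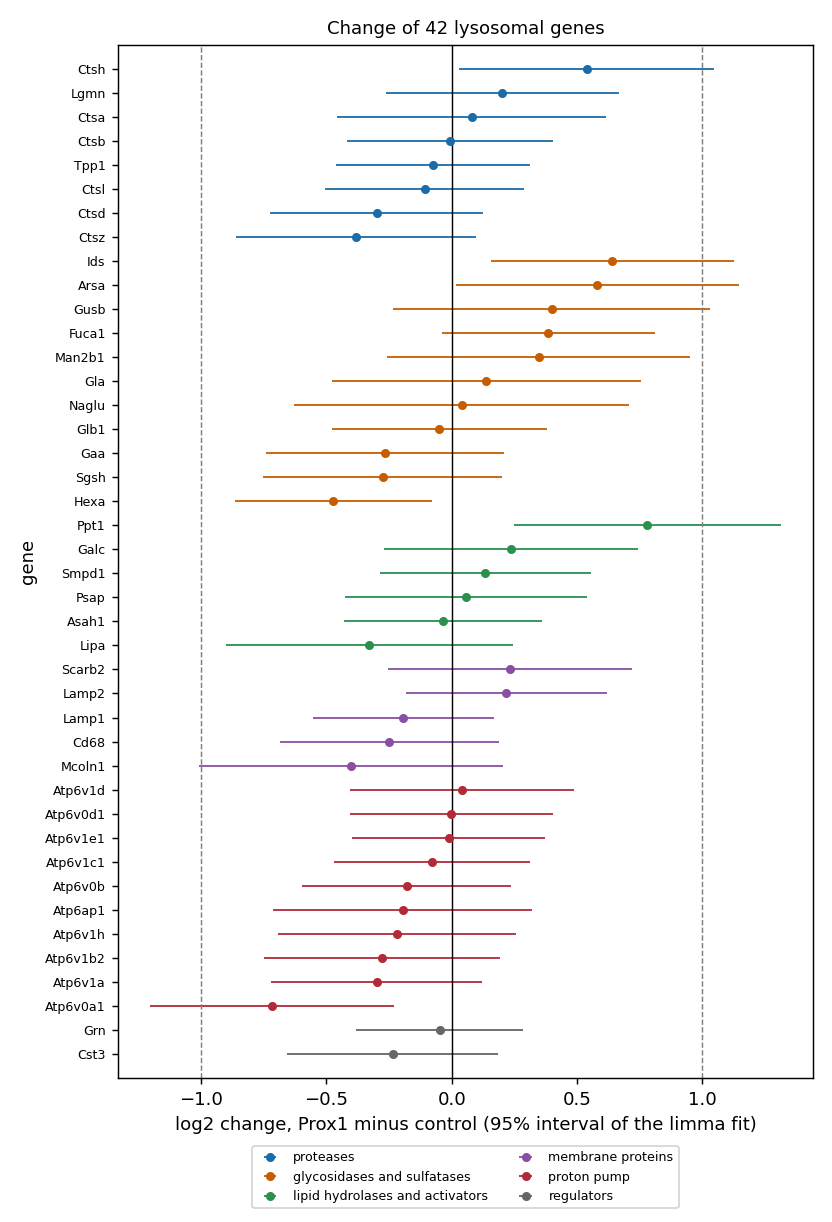
Log2 change (Prox1-labelled minus control clones) of the 42 genes that passed the filter, with the 95% interval of the limma fit and a dashed line at a 2-fold change on either side. Points range from -0.72 at Atp6v0a1 to 0.78 at Ppt1, and 35 of the 42 intervals lie between the dashed lines.

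How far a change rested on 1 control clone differed among genes. Control clone 2 lay above control clone 1 at 24 of the 42 genes, a similar share to the 3945 of all 6949 genes tested. The median difference was 0.12 on the log2 scale, beside 0.064 over all genes tested. By class that median was 0.25 for the proteases, 0.28 for the glycosidases and sulfatases, 0.41 for the lipid hydrolases, -0.036 for the membrane proteins and -0.063 for the proton pump. Between the Prox1-labelled clones the median over the 42 genes was 0.032 for clone 2 minus clone 1. Without control clone 2, 6 of the 42 genes passed the threshold, namely Arsa, Ppt1, Ctsh, Gusb and Man2b1 with higher and Ctsd with lower values, in a fit that called 1150 of 11656 probe sets (9.87%). Without control clone 1, 0 of the 42 passed it, with a lowest adjusted p of 0.0588, and 133 probe sets were called (1.14%). Without Prox1-labelled clone 1 or 2, 0 of the 42 passed it, with 42 (0.36%) and 67 (0.575%) probe sets called. With the clone number as a block, 0 of the 42 passed it among 110 probe sets called (0.944%). A fit without a clone holds 1 array in that group, and its p-values assume that this clone varies like the others.

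**Figure D3:**
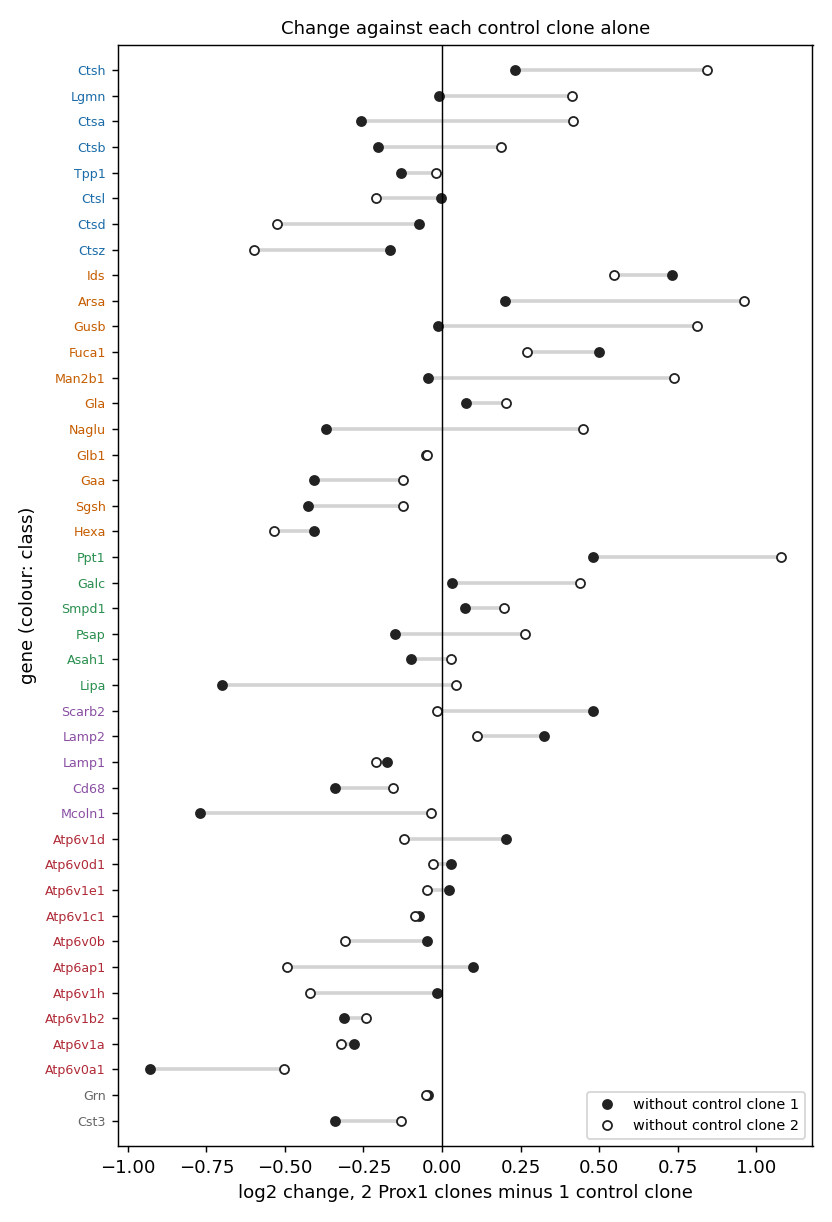
Log2 change of each of the 42 genes with both Prox1-labelled clones set against 1 control clone, without control clone 1 (filled) or without control clone 2 (open). Arsa lies at 0.20 and 0.96 and Mcoln1 at -0.77 and -0.034, while both points of Glb1, Grn and Lamp1 nearly coincide.

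Several probe sets of a gene gave a second reading on the same arrays. Of 21 genes with at least 2 probe sets past the filter, 13 had all changes of 1 sign and 8 had changes of both signs. The closest pairs were those of Gusb, Psap and Mcoln1, the last with -0.40 and -0.44. The widest were those of Atp6v0a1, from -0.72 to 0.58, and Lamp2, from -0.67 to 0.22.

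**Figure D4:**
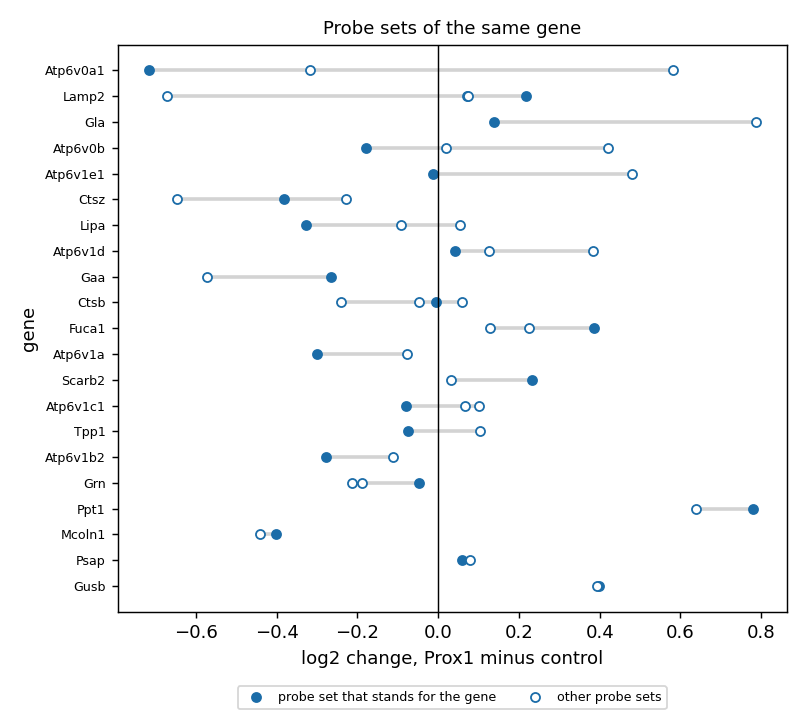
Log2 change (Prox1-labelled minus control clones) of every probe set past the filter for the 21 genes that have several, with the probe set that stands for the gene filled and the others open. Changes of Atp6v0a1 span 1.30 on the log2 scale across the 0 line, and those of Gusb lie together.

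Other genes of the same pathways gave the same count of 0 past the threshold in every list, with adjusted p from the same fit over all probe sets. Of 23 other lysosomal hydrolases and activators listed, 13 passed the filter, 9 with positive changes (median 0.12). The median of this list was 0.0050 without control clone 1 and 0.17 without control clone 2. In that list Sumf1, the enzyme that activates all sulfatases, read 395 and 527 in Prox1-labelled clones, against 219 and 314 in control clones (0.70, limma adjusted p = 0.241), and the carboxypeptidase gene Scpep1 had -0.53 (adjusted p = 0.254). Of 16 other membrane proteins, 7 passed the filter (4 positive, median 0.010), with Tmem192 at -0.50 (adjusted p = 0.301) and Cd164 at 0.34 (adjusted p = 0.452).

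Of 11 further V-ATPase genes, 6 passed the filter, 3 positive and 3 negative (median -0.037). Their median was 0.14 without control clone 1 and -0.20 without control clone 2. Atp6v1g1, a stalk subunit, read 3139 and 3275 in Prox1-labelled clones, against 2590.0 and 1650.5 in control clones (0.62, limma adjusted p = 0.269), and its change was 0.94 without control clone 1 and 0.30 without control clone 2. Tcirg1, which encodes the a3 isoform of the large V0 subunit, read 1051 and 846 in Prox1-labelled clones, against 687 and 656 in control clones (0.46, adjusted p = 0.327). Atp6v0a2, the a2 isoform, chosen after its value was seen, had -0.42 (adjusted p = 0.374).

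Sorting genes, among them the receptors that carry hydrolases to lysosomes, had 7 of 11 listed past the filter, 5 positive (median 0.11). The retromer subunit gene Vps35 had -0.22 (limma adjusted p = 0.641) and Igf2r, the large mannose 6-phosphate receptor, had 0.22 (adjusted p = 0.714). In the TFEB family and its regulators, 5 of 7 passed the filter, with 1 positive. That was Mtor, the kinase that keeps TFEB out of the nucleus, at 752 and 637 in Prox1-labelled clones, against 392 and 500.3 in control clones (0.59, adjusted p = 0.254). Mitf, a relative of TFEB, had -0.63 (adjusted p = 0.289), and its value of 92.9 in Prox1-labelled clone 2 lay under the highest Bacillus probe set of that array. All 16 autophagy genes listed passed the filter, 9 of them positive (median 0.082). The autophagy receptor gene Sqstm1 read 8146 and 6682 in Prox1-labelled clones, against 12785 and 9013 in control clones (-0.54, adjusted p = 0.288), and the kinase gene Ulk1 had 0.49 (adjusted p = 0.337). In the list of cystatins, 2 of 4 passed the filter, Cst6 with -0.73 (adjusted p = 0.290) and Cstb with 0.10 (adjusted p = 0.832). For Cst6 the change was -1.17 without control clone 1 and -0.29 without control clone 2, and for Sqstm1 it was -0.29 and -0.79.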

How the data were processed

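Total RNA of 4 clones was hybridised to 1 array each. The authors deposited linear probe set intensities, and the submitters' processing notes name MAS5, whose version is not given in the sources used here. With 2% of values trimmed from each end, the mean of the deposited columns, averaged over the arrays, was 500. The columns were used as scaled by the submitters. Sample titles gave groups and clone numbers. Precision is limited by the number of arrays: for 2 against 2 clones the smallest exact permutation p is 0.333.

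The deposited intensities were turned into log2(intensity + 47), the pseudocount being the 25th percentile of all values. Of 22690 probe sets, 64 controls were left out, and 20380 had 1 gene in the platform annotation. Those brighter than the array's median on at least 2 arrays, 11656 in all, entered a limma 3.58.1 fit (R 4.3.3) with trended eBayes, 2-sided tests and Benjamini-Hochberg adjustment at 0.05. Genes under the filter were read from that fit without the filter. The procedure was tested on simulated data. The p-values rest on the spread within each group of arrays, moderated by the variances of all probe sets tested. That spread holds clone, culture and array differences together.

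Values in every clone are given for the 4 genes of each class with the smallest unadjusted p among those tested, and for Tfeb, Cst3 and Grn. The 2 genes with the smallest unadjusted p are named in each comparison list. Ctsb, Ctsk, Ctss, Gusb, Gla, Gm2a and Atp6v0d1 were chosen for such values after these were seen, where the rule did not name them. The genes, classes and lists were chosen with earlier results of these data known. Clones of the 2 groups share numbers, and deviations of same-numbered clones from their group means correlated at -0.0091 (11656 probe sets). With 2 clones per group this is 1 value for both numbers, and it cannot show whether same-numbered clones were handled together. The main fit took the clones as unpaired. Alternatives changed the scaling (quantile, median centring), the pseudocount (none, or 173), the filter (none, or the 75th percentile), the variance model (untrended, robust), added the clone number as a block, left out each clone, averaged a gene's probe sets, or dropped suffixed probe sets (_x_at, _s_at, _a_at).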

Additional observations from a re-analysis of the deposited data

How the results depend on the processing

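The count of 0 lysosomal genes past the threshold held under 14 of 15 alternatives, with 6 genes called when control clone 2 was left out. Among all probe sets, the count of 12 was 4 with quantile normalization, 0 without the filter (limma, with 2300 at an unadjusted p under 0.05), 7 with the robust variance model and 42 to 1150 when a clone was left out. With the clone number as a replicate block it was 110, and 0 lysosomal genes were called (lowest adjusted p = 0.133). Class medians ran, without any 1 clone, from -0.087 to 0.29 for glycosidases and sulfatases, from -0.034 to 0.23 for lipid hydrolases, from -0.17 to -0.034 for membrane proteins, from -0.10 to 0.085 for proteases, from -0.28 to -0.032 for the proton pump and from -0.19 to -0.092 for the regulators. For membrane proteins the median was -0.12 with quantile normalization, -0.24 with median centring, 0.013 with the stricter filter (4 genes) and 0.22 without suffixed probe sets (3 genes). It was 0.080 for proteases without suffixed probe sets and -0.076 for the pump with the mean over probe sets. Among single genes, 24 of 50 changed sign under at least 1 alternative and 26 under none, and the largest change among the 24 was 0.40 in size. With quantile normalization the changes were 0.025 for Ctsb, -0.0063 for Naglu, 0.014 for Atp6v0d1 and 0.019 for Atp6v1e1. With median centring they were -0.0050 for Ctsf, -0.0052 for Naglu, -0.022 for Ctns and -0.0044 for Atp6v1d. With probe sets averaged they were 0.015 for Tpp1, -0.077 for Lamp2, 0.086 for Atp6v0b, 0.029 for Atp6v1c1 and 0.23 for Atp6v1e1. Without suffixed probe sets they were 0.053 for Lipa, 0.10 for Atp6v1c1 and 0.48 for Atp6v1e1. Without any 1 clone the change ran from -0.26 to 0.42 for Ctsa, -0.20 to 0.19 for Ctsb, -0.16 to 0.63 for Ctsc, -0.42 to 0.20 for Ctsk, -0.0097 to 0.41 for Lgmn, -0.29 to 0.56 for Gla and -0.013 to 0.81 for Gusb. It ran from -0.37 to 0.45 for Naglu, -0.044 to 0.74 for Man2b1, -0.10 to 0.029 for Asah1, -0.70 to 0.046 for Lipa, -0.15 to 0.26 for Psap, -0.016 to 0.48 for Scarb2, -0.12 to 0.16 for Ctns and -0.65 to 0.15 for Cln3. For pump genes it ran from -0.045 to 0.043 for Atp6v0d1, -0.18 to 0.020 for Atp6v1c1, -0.12 to 0.20 for Atp6v1d, -0.054 to 0.029 for Atp6v1e1 and -0.49 to 0.10 for Atp6ap1. The cause of these shifts was not tested. Genes near the Bacillus floor (Ctsc, Ctsf, Ctsk, Ctss, Tfeb) have little signal over background.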
